A study of Homo sapiens with 9 samples.

Results

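Heat shock proteins and their partners keep other proteins folded, and 27 genes of these families were followed in BT-549 cells after transfection with a miR-150-5p mimic. BT-549 is a human breast cancer line of the triple-negative kind, whose tumours lack hormone receptors and extra HER2. Cells received the lipid Lipofectamine RNAiMAX alone (mock), a non-specific negative control RNA at 50 nM, or the mimic of mature miR-150-5p at 50 nM, with 3 samples in each group. All 9 samples were collected 72 h after transfection and read on Affymetrix Human Gene 2.0 ST arrays, so the negative control and mimic groups share the entry of a small RNA and all groups share the lipid. The genes were taken by name from 14884 genes with a single symbol, as those whose symbol marks a heat shock protein, chaperone, disulfide isomerase, BAG protein or stress regulator. Where a gene had several features on the array, the one with the highest mean over the 9 arrays stood for it.

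The 27 genes were 13 of the HSP70 and HSP110 family, 3 small heat shock proteins, HSPD1, the lectin chaperones CALR and CANX, BAG1 to BAG5, and the stress regulators XBP1, ATF4 and ATF6. The HSP90 genes, the J proteins, the chaperonin CCT and the disulfide isomerases that the rule also names were not analysed here, nor were HSPA5 (BiP) and HSPA8, the main HSP70 proteins of the unstressed ER and cytosol, HSPE1, BAG6 and HERPUD1. HSP70 proteins bind unfolded stretches of other proteins and release them in cycles of ATP use, and BAG proteins help them exchange the nucleotide. Stress-inducible HSP70 genes are switched on by heat shock factors, whereas the unfolded protein response of the endoplasmic reticulum (ER) acts through ATF6, XBP1 and ATF4. Tumour cells are known to rely on both systems.

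The promoters of the genes whose changes passed the test are shown because their letters match known site patterns of these systems. Whether the sites act in these cells was not tested. HSPA1A (GRCh38.p14, chr6:31815543-31817942) and HSPA1B (chr6:31827738-31830254) are neighbouring genes for nearly the same inducible HSP70 protein, and XBP1 lies at chr22:28794560-28800569. The sequences are RefSeq promoter windows of 300 bases, from 250 before the start site to 50 after it, read 5′ to 3′ in the direction of the gene. Capitals mark a pair of heat shock element units (GAANNTTC) in HSPA1A and HSPA1B, and the ER stress element (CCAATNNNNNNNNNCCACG) in XBP1. The windows are chr6:31815293-31815592 on the plus strand, chr6:31827488-31827787 on the plus strand and chr22:28800520-28800819 on the minus strand, in this order.
HSPA1A: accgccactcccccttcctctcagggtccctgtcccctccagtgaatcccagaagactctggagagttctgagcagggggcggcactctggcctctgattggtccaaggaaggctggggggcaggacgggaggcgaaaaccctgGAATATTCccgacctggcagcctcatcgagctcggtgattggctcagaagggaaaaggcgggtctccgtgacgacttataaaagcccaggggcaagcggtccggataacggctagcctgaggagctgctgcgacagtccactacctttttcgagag
HSPA1B: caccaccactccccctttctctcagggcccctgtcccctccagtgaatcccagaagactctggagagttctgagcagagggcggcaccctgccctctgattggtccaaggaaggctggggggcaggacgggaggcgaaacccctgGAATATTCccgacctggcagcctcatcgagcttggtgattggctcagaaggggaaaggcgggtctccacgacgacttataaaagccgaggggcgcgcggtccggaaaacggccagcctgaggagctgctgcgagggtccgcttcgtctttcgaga
XBP1: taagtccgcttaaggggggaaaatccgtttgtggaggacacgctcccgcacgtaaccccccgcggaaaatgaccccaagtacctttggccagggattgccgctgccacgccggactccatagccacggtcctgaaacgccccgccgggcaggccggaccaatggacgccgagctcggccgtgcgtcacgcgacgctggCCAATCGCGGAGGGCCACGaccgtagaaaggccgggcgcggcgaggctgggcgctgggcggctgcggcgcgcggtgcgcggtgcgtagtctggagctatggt

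The windows of HSPA1A and HSPA1B had 277 bases in common when aligned, 92.0% of the aligned columns. HSPA1L, another HSP70 gene of the same cluster, runs the other way from HSPA1A, and their promoter windows share 241 bases, so that the marked GAATATTC lies in both.

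Promoter windows were found for 23 of the 27 genes, and each motif was searched on both strands. The ER stress element was in 3 of the 23 (XBP1, CALR and CANX), against 0.0806% of all 27305 promoter windows. It begins with a CCAAT box, which alone occurs in 35.7% of windows and in 7 of the 23. These 3 sites are shown with 10 bases on each side, turned so that the element in capitals reads forward. They lie at chr22:28800603-28800621, chr19:12938384-12938402 and chr5:179698778-179698796.
XBP1: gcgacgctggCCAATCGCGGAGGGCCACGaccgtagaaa
CALR: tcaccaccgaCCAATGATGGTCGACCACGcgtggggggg
CANX: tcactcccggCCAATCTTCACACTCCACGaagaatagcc

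Among the 23, an exact match to a heat shock element of 3 units (TTCNNGAANNTTC, on either strand) was found only in HSPA6. Of all windows 0.487% held such a match. It is shown for contrast with HSPA1A, since HSPA6 is known as a strictly stress-induced HSP70 gene, and lies at chr1:161524466-161524478.
HSPA6: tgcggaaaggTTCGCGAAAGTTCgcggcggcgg

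The pair of units GAANNTTC was searched after HSPA1A was seen to lack an exact match to the longer element. Only exact letters were searched, so looser 3-unit sites would be missed, in HSPA1A too. The pair was in 7 of the 23 and in 6.87% of all windows. The 7 were HSPA1A, HSPA1B, HSPA1L, HSPA6, HSPB1, HSPB8 and BAG2. The match in HSPA1L is the same site as that in HSPA1A, and the HSPA1B window is nearly a copy. The 7 are thus not independent matches. The reverse order TTCNNGAA was in 3 of the 23 and 7.84% of windows. The XBP1 and ATF6 site TGACGTGG was in 0 of the 23 and 0.795% of windows. The C/EBP-ATF site TGATGNAA, which ATF4 can bind, was found in HSPA4L alone and in 3.67% of windows. A match describes the letters of the window, not binding.

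Array medians of all features lay between 2.43 and 2.48 (log2), and Pearson's r across features was 0.981 to 0.989 for pairs of arrays within groups and 0.977 to 0.986 between groups. Whether the arrays of a group came from different cultures is not stated, so each p-value rests on array-to-array spread that may be technical only. Of 6 listed markers of mesenchymal breast cancer cells, 4 were measured and read high: VIM 8.47 to 9.38, FN1 8.16 to 9.48, AXL 7.85 to 8.56 and CD44 7.02 to 7.54. ESR1, PGR and EPCAM stayed at or below 2.37, whereas KRT18 (7.31 to 7.75) and GATA3 (5.04 to 6.11) and less so KRT8 (3.44 to 4.27), listed as low for such a line, did not. Features of the 4 measured blood, endothelial and fat markers CD14, PECAM1, VWF and PLIN1 lay between 1.96 and 2.81. The mean of 23 small nucleolar and Cajal body RNA features, which differed between arrays, was 6.78 on mock 2 and 6.83 on negative control 2 against 5.62 to 5.91 on the other control arrays, and 5.95 to 6.75 on mimic arrays. With this mean as a covariate the calls given below for HSPA1A, HSPA1B and XBP1 held, except that of HSPA1B in the mimic against mock (adjusted p = 0.0506). Over all genes the balance of calls moved with the scaling. Between mimic and negative control 262 rose and 211 fell, or 176 and 289 when the arrays were quantile-normalized again. Against mock the mimic's 339 and 241 became 231 and 287, and the 25 and 71 of the negative control became 56 and 80.

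The inducible HSP70 genes were higher after transfection with either small RNA than after the lipid alone. HSPA1A rose 1.67-fold in the negative control against mock and 1.42-fold in the mimic against mock, and HSPA1B rose 1.57-fold and 1.34-fold. Their neighbour HSPA1L and the strictly inducible HSPA6 did not pass in either comparison. HSPA6 lay below the median of all features on each of the 9 arrays, where a small change could not be seen. These comparisons ask what the negative control RNA or the miR-150-5p mimic adds to the lipid. Effects of the control RNA's entry and of its sequence cannot be told apart here. A change is called at an adjusted p under 0.05 in limma, with adjustment over all 14884 genes, and fold changes come from differences of mean log2 signals.

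The log2 signal of HSPA1A was 7.82, 7.97 and 8.09 on the mock arrays (in order of their numbers, as throughout), 8.63, 8.78 and 8.70 on those of the negative control, and 8.53, 8.32 and 8.53 on those of the mimic. All 3 groups were thus apart from each other, with mock lowest and the negative control highest. The difference was 0.74 ± 0.099 (SE, n = 3 per group, adjusted p = 0.0123) in the negative control against mock and 0.50 ± 0.099 (adjusted p = 0.0267) in the mimic against mock. Between mimic and negative control it was -0.24, with a 95% interval from -0.46 to -0.02 before adjustment, and did not pass (adjusted p = 0.273). Leaving out mock 1, negative control 2 or negative control 3 ended the call in the negative control (highest adjusted p = 0.078). Leaving out mock 1, mock 2, mimic 1 or mimic 3 ended that in the mimic (highest adjusted p = 0.103).

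HSPA1B followed the same order of groups. It read 7.82, 8.08 and 7.96 on mock, 8.59, 8.68 and 8.55 on negative control and 8.49, 8.22 and 8.43 on mimic arrays. No mock array reached the lowest array of either other group, and the mimic arrays lay below those of the negative control. The differences were 0.65 ± 0.10 (n = 3 per group, adjusted p = 0.0214) in the negative control and 0.42 ± 0.10 (adjusted p = 0.0483) in the mimic against mock. Mimic and negative control differed by -0.22 (adjusted p = 0.309). The call in the negative control ended when any array other than mock 2, mimic 1 or mimic 2 was left out (highest adjusted p = 0.109), and that in the mimic when any array other than mimic 2 was (highest adjusted p = 0.169).

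Each negative control array matched the mock array of its own number best, but only weakly (r = 0.152, 0.225 and 0.147). Such values do not establish that the arrays were paired, and the labels state no pairing. Between these groups HSPA1A still passed with the replicate block (adjusted p = 0.0414), while HSPA1B did not (adjusted p = 0.0797). On the 6 arrays of these groups alone neither passed, with the replicate block (adjusted p = 0.0986 and 0.114) or without it (adjusted p = 0.0664 and 0.0831).

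HSPA1A and HSPA1B are so alike that probes may read both transcripts, and the pair is not 2 independent results. Each had 5 features on the array. The cluster lies in the major histocompatibility region, for which the genome reference holds alternative versions. Of the 5 HSPA1A features 3 had identical values on all 9 arrays, leaving 3 distinct rows, and the 5 HSPA1B features were all distinct. In the negative control against mock the features gave 0.74 to 0.80 for HSPA1A and 0.55 to 0.78 for HSPA1B. For the mimic against mock they gave 0.50 to 0.58 and 0.37 to 0.53. No feature of either gene pointed the other way.

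**Figure D1:**
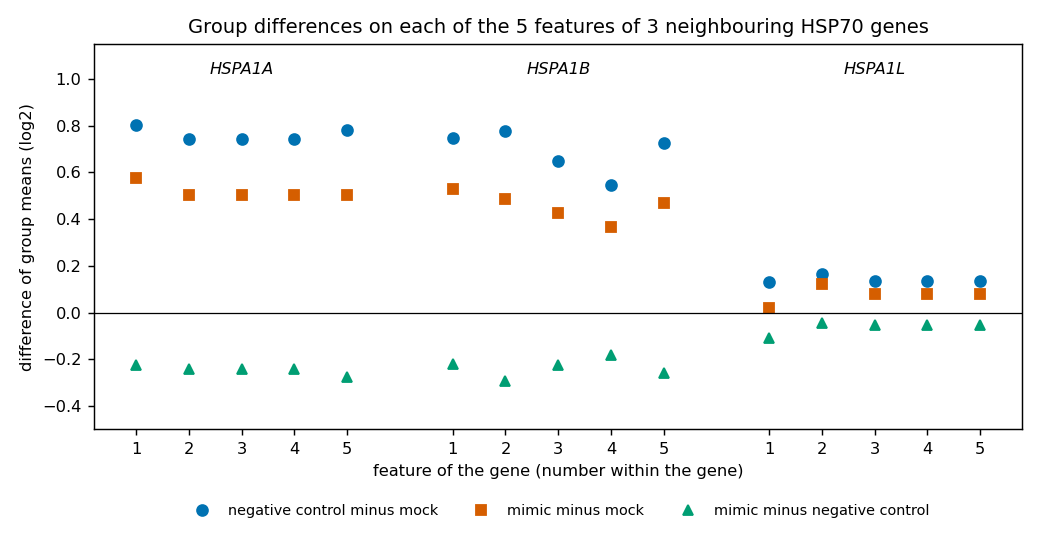
Differences of group means (log2, vertical axis) on each of the 5 features of HSPA1A, HSPA1B and HSPA1L (horizontal axis, 3 arrays per group). Circles are negative control minus mock, squares mimic minus mock and triangles mimic minus negative control; the HSPA1A and HSPA1B features lie between 0.37 and 0.80 against mock, while those of HSPA1L lie between 0.02 and 0.16.

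HSPA1L, whose product is best known from the testis, shares its promoter region with HSPA1A. Its range was 3.39 to 3.72 in mock, 3.62 to 3.87 in the negative control and 3.41 to 3.96 in the mimic. The groups overlapped, and the difference was 0.14 ± 0.15 in the negative control (n = 3 per group, adjusted p = 0.813) and 0.08 in the mimic against mock (adjusted p = 0.852). HSPA6 read 2.13, 2.16 and 2.20 on mock, 2.18, 1.93 and 2.15 on negative control and 2.20, 1.97 and 2.37 on mimic arrays, below the median of all features on each of the 9 arrays. Its near-copy HSPA7, a pseudogene, read 2.13 to 2.61. At such signals a small change could not be seen, and nothing is read from their differences.

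HSPA14 and HSPH1 were higher in the mimic without passing. HSPA14, a ribosome-associated HSP70, read 5.48, 5.60 and 5.63 on mock, 5.55, 5.80 and 5.43 on negative control and 6.42, 5.93 and 6.0 on mimic arrays. Every mimic array lay above all 6 others, and mimic 1 was the highest. The difference was 0.55 ± 0.14 against mock (n = 3 per group, adjusted p = 0.065) and 0.52 ± 0.14 against the negative control (adjusted p = 0.0876). HSPH1, an HSP110 that exchanges the nucleotide of HSP70 and pulls apart aggregates with it, read 8.52, 8.10 and 8.30 on mock, 8.55, 8.49 and 8.35 on negative control and 8.85, 8.66 and 8.81 on mimic arrays. Here too the 3 mimic arrays lay above the other 6. Its difference was 0.47 ± 0.12 against mock (adjusted p = 0.0585) and 0.31 ± 0.12 against the negative control (adjusted p = 0.22). Tested only among the brighter genes (mean signal no lower than the median), both passed against mock (adjusted p = 0.0369 for HSPA14 and 0.0385 for HSPH1). Over 19 alternative settings HSPA14 passed against mock in 1 and HSPH1 in 3, with adjusted p up to 0.199 and 0.187.

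HSPA9, the mitochondrial HSP70 mortalin, read 10.53, 10.19 and 10.64 on mock, 10.23, 10.27 and 10.30 on negative control and 10.70, 10.67 and 10.48 on mimic arrays. Mimic and negative control arrays did not overlap, with a difference of 0.35 ± 0.12 that did not pass (n = 3 per group, adjusted p = 0.173). HSPD1, the mitochondrial chaperonin HSP60, read 7.33, 7.06 and 7.09 on mock, 7.35, 7.44 and 7.11 on negative control and 7.61, 7.37 and 7.46 on mimic arrays. Its arrays were apart only between mimic and mock, at 0.32 ± 0.12 (adjusted p = 0.176). HSPA2, known for its part in sperm formation, had the widest spread of the 27 within the 2 groups given a small RNA, from 3.69 to 4.54 on negative control and from 4.14 to 5.23 on mimic arrays. Its difference between these groups, 0.53 ± 0.29, was the largest of the 27 in that comparison and did not pass (adjusted p = 0.429).

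The cytosolic HSPA4, of the HSP110 type, differed by at most 0.07 in the 3 comparisons, and its 9 arrays lay between 8.36 and 8.58. For its relative HSPA4L the negative control exceeded mock by 0.26 ± 0.098 (n = 3 per group, adjusted p = 0.359), with overlapping arrays. HSPA12A and HSPA12B, distant relatives of HSP70, read 2.86 to 3.24 and differed by at most 0.12. These signals lay not far above the array medians of 2.43 to 2.48, where a small change could be missed. Of the 13 genes of the family, 2 rose and 0 fell in the negative control against mock, with 11 not passing, beside 0.168% and 0.477% of all genes tested. Against mock, the mimic gave the same counts, beside 2.28% and 1.62%, and 11 of the 13 differences were above 0 (median 0.13). Over all genes 50.2% were above 0 there. In the negative control against mock 8 of the 13 were (median 0.05). Between mimic and negative control 0 rose and 0 fell by limma (5 at an unadjusted p under 0.05), beside 1.76% and 1.42%, with 6 of 13 above 0.

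**Figure D2:**
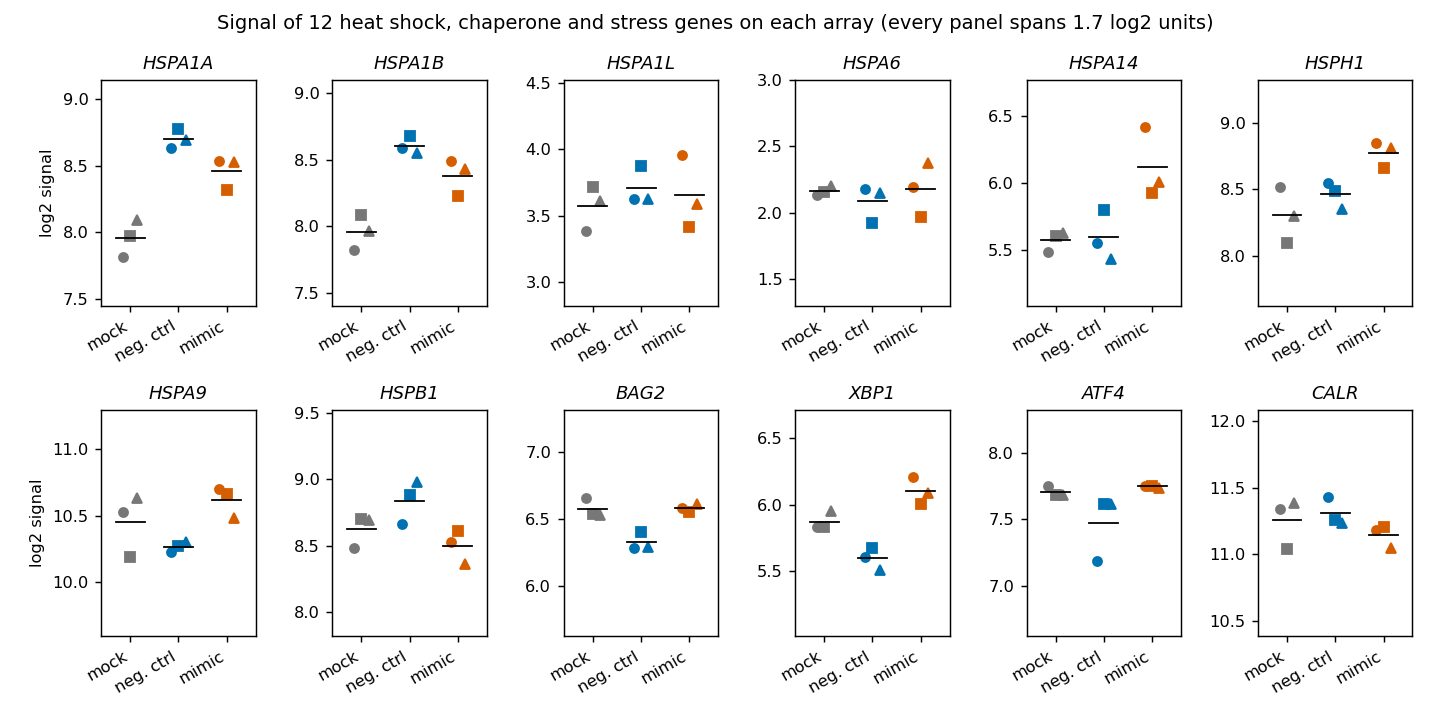
Log2 signal (vertical axes, each spanning 1.7 log2 units) of 12 genes on the 9 arrays, by group; circles, squares and triangles are arrays 1, 2 and 3 and the bars are group means. HSPA1A and HSPA1B lie highest in the negative control, XBP1 and BAG2 lie lowest there, and HSPA14 and HSPH1 are highest on the mimic arrays.

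Small heat shock proteins bind unfolding proteins without using ATP. HSPB1 (HSP27) read 8.49, 8.70 and 8.70 on mock, 8.66, 8.88 and 8.98 on negative control and 8.53, 8.61 and 8.37 on mimic arrays. The mimic lay below the negative control without overlap, by -0.34 ± 0.11 (n = 3 per group), which did not pass (adjusted p = 0.16). HSPB3 and HSPB8 stayed below the median of all features on each array, at 1.77 to 2.18. No small heat shock protein gene passed in any of the 3 comparisons (1 at an unadjusted p under 0.05 in limma, HSPB1).

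The BAG genes did not pass in any comparison either, with 2, 2 and 1 of the 5 at an unadjusted p under 0.05 in the mimic against the negative control, the mimic against mock and the negative control against mock. BAG2, which restrains the ubiquitin ligase CHIP, came nearest. It read 6.66, 6.54 and 6.53 on mock, 6.28, 6.40 and 6.29 on negative control and 6.58, 6.55 and 6.61 on mimic arrays. The negative control lay below both other groups without overlap, by -0.25 ± 0.076 against mock (n = 3 per group, adjusted p = 0.234), and the mimic was at 0.26 ± 0.076 against the negative control (adjusted p = 0.117). BAG1, an anti-apoptotic partner of HSP70, read 4.50 to 4.86 on mimic arrays against 4.23 to 4.48 on the other 6 (0.29 ± 0.11 against mock, adjusted p = 0.216). BAG3, which sends aggregated proteins to autophagy and is itself a heat shock factor target, spanned 5.53 to 5.77 in mock, 5.79 to 5.94 in the negative control and 5.83 to 5.97 in the mimic. Its arrays in mock were thus apart from both groups with small RNA, with differences of 0.18 ± 0.093 (adjusted p = 0.538) and 0.19 ± 0.093 (adjusted p = 0.325). BAG4 and BAG5 differed by at most 0.26. Of the 5 genes 5 were above 0 in the mimic against mock, or 3 when the arrays were quantile-normalized again. Over all genes 50.2% were above 0 there, and 4 of the 5 were in the negative control against mock.

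XBP1, the transcription factor that induces ER chaperones and degradation genes, was the only one of the 27 that passed in the mimic against the negative control, the comparison that separates miR-150-5p from an unrelated small RNA. It rose 1.42-fold. XBP1 read 5.83, 5.83 and 5.95 on mock, 5.61, 5.67 and 5.51 on negative control and 6.21, 6.0 and 6.08 on mimic arrays. The groups were apart in all 3 comparisons, with the negative control lowest and mock between. The difference was 0.50 ± 0.086 against the negative control (n = 3 per group, adjusted p = 0.0155). Against mock the mimic was at 0.23 ± 0.086 (adjusted p = 0.198), and the negative control was at -0.27 ± 0.086 (adjusted p = 0.252), neither of which passed. Without negative control 3, mimic 1 or mimic 3 the call ended (highest adjusted p = 0.0623). The summed signal does not tell the spliced, active XBP1 mRNA from the unspliced one.

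ATF4, the transcription factor made when translation is restrained under stress, read 7.75, 7.68 and 7.68 on mock, 7.19, 7.61 and 7.61 on negative control and 7.75, 7.75 and 7.73 on mimic arrays. Negative control 1 lay far below the other arrays and widened that group's spread to an SD of 0.24, against 0.04 in mock and 0.01 in the mimic. The difference between mimic and negative control, 0.27 ± 0.11, did not pass (n = 3 per group, adjusted p = 0.272), and it was 0.13 without negative control 1 (adjusted p = 0.505). ATF6, a membrane-bound sensor of the ER, spanned 7.33 to 7.65 in mock, 7.36 to 7.43 in the negative control and 7.21 to 7.37 in the mimic, and its differences were between -0.15 and -0.07. ATF4 acts mainly through its protein, and ATF6 is activated by cleavage; neither is measured by an array.

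The lectin chaperones CALR (calreticulin) and CANX (calnexin), which hold glycoproteins during folding in the ER and carry the ER stress element shown above, did not pass. CALR read 11.34, 11.04 and 11.38 on mock, 11.43, 11.26 and 11.23 on negative control and 11.18, 11.20 and 11.05 on mimic arrays. The mimic lay below the negative control without overlap, by -0.16 ± 0.11 (n = 3 per group, adjusted p = 0.531). CANX read 10.01, 9.74 and 10.04 on mock, 9.87, 9.65 and 9.66 on negative control and 9.81, 9.74 and 9.61 on mimic arrays, with overlapping groups and differences between -0.21 and -0.01. Thus of the 3 genes with this element, XBP1 was higher in the mimic than in the negative control and CALR and CANX were at -0.16 and -0.01.

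**Figure D3:**
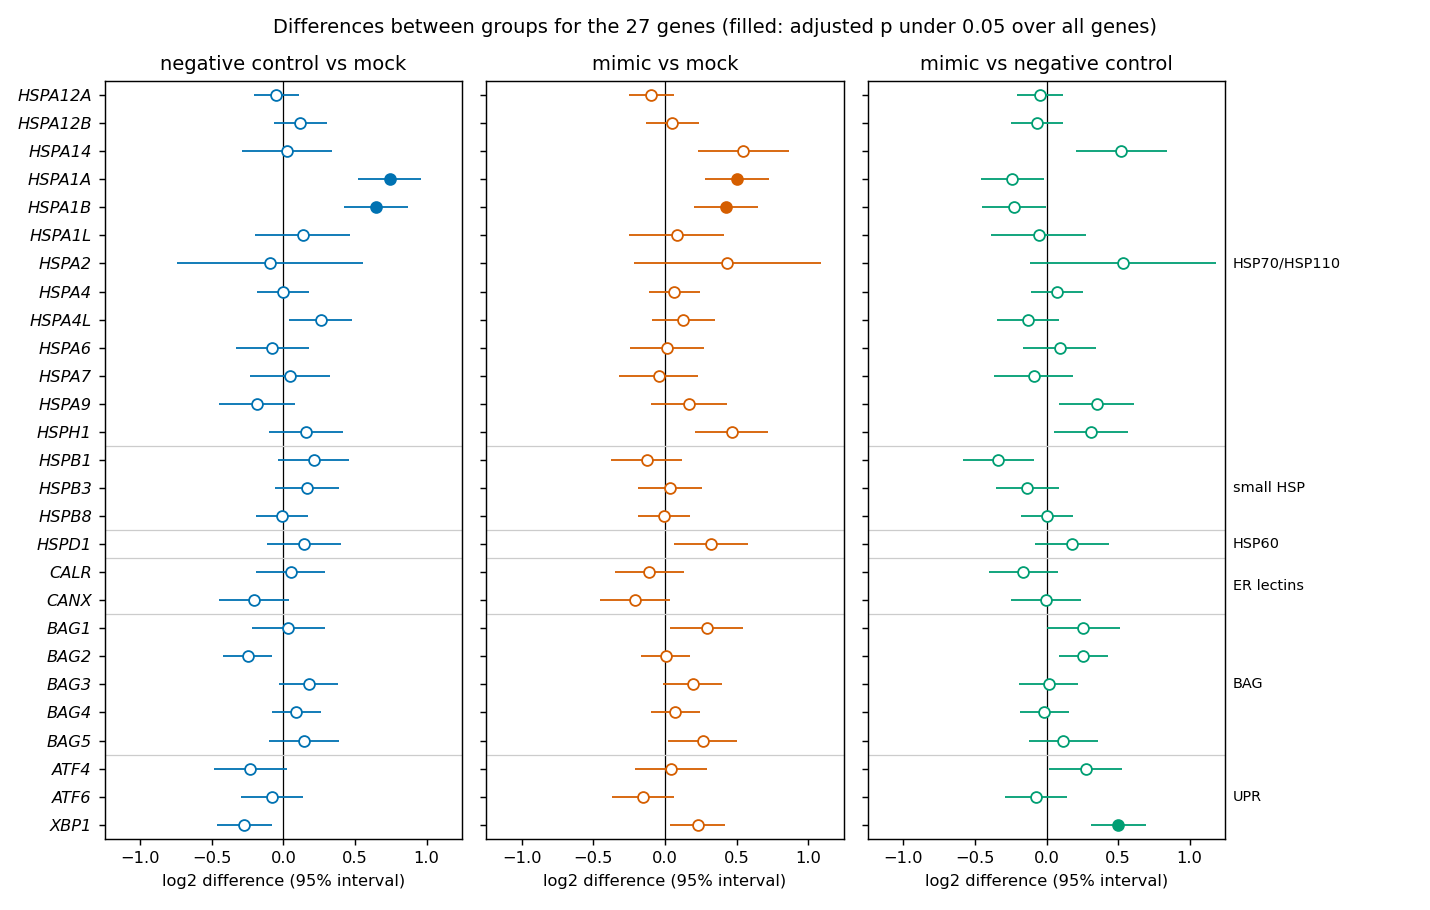
Log2 difference (horizontal axis) of each of the 27 genes in 3 comparisons of 3 arrays against 3; points are limma estimates, lines their 95% intervals before adjustment, and filled points passed at an adjusted p under 0.05 over all 14884 genes. HSPA1A and HSPA1B are filled against mock and XBP1 against the negative control.

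Counted together, 2 of the 27 rose and 0 fell in the negative control against mock, where 0.168% of all genes tested rose and 0.477% fell. At an unadjusted p under 0.05 in limma there were 3 above 0 and 2 below. The 2 were HSPA1A and HSPA1B, among 25 rises over all genes. Of the same 27, the mimic had 2 that rose and 0 that fell against mock (8 above 0 and 0 below at an unadjusted p under 0.05), beside 2.28% and 1.62% of all genes. Between mimic and negative control 1 rose and 0 fell (7 above 0 and 3 below at an unadjusted p under 0.05), beside 1.76% and 1.42%. With 1 or 2 genes called, and 2 of them near-copies, these counts say little about the families as a whole.

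Arrays of the groups did not overlap for 12 of the 27 in the mimic against the negative control, 10 in the mimic against mock and 7 in the negative control against mock. Over all genes tested this held for 18.6%, 20.2% and 12%, and over the 7442 genes at or above the median signal, which include 21 of the 27, for 28%, 30.7% and 16.6%. Of these 21, the arrays did not overlap for 12, 9 and 6. The median difference of the 27 was 0.00 in the mimic against the negative control, 0.07 in the mimic against mock and 0.05 in the negative control against mock, beside 0.00, 0.00 and 0.01 over all genes. When the arrays were quantile-normalized again the medians of the 27 were -0.04, 0.04 and 0.06. The comparisons share arrays, so their values are not independent of each other.

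Of 130 further genes of protein folding and stress, in 7 lists, 84 were measured. Between mimic and negative control 4 rose and 1 fell, beside 1.76% and 1.42% of all genes. The mimic had 1 that rose and 2 that fell against mock, beside 2.28% and 1.62%. The negative control had 0 that rose and 3 that fell against mock by limma (8 above 0 and 7 below at an unadjusted p under 0.05), beside 0.168% and 0.477%. The median differences of the 84 were 0.08, 0.10 and 0.04.

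Co-chaperones of HSP90 and HSP70 were above 0 in the mimic for all 9 measured, against the negative control (median 0.23, or 0.14 when quantile-normalized again) and against mock (median 0.34, or 0.27 with 8 of 9 above 0). The list held 20 genes, and the others were not measured. Over all genes 48.6% and 50.2% were above 0 in these comparisons. Genes at or above the median signal were themselves shifted up a little, with medians of 0.05 and 0.06. In the negative control against mock 5 of the 9 were above 0, with a median of 0.04. One of them passed: TOMM70, the mitochondrial import receptor that takes proteins from HSP70 and HSP90, read 7.54, 7.40 and 7.57 on mimic, 7.03, 7.13 and 7.16 on negative control and 7.09, 7.24 and 7.18 on mock arrays. The mimic arrays lay above the other 6, by 0.40 ± 0.083 against the negative control (n = 3 per group, adjusted p = 0.0336). Leaving out mock 1, mimic 1, mimic 3 or any negative control array ended the call (highest adjusted p = 0.117).

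Genes of mitochondrial folding and proteolysis were above 0 in the mimic against mock for all 9 measured (median 0.31). When the arrays were quantile-normalized again 7 of the 9 were. Over all genes 50.2% were above 0 in that comparison. The negative control against mock had 7 of the 9 above 0 (median 0.15). The mimic against the negative control had 8 above 0 (median 0.16), and 0 of the 9 passed. TRAP1, the mitochondrial HSP90, read 7.26, 7.20 and 7.68 on mock, 7.60, 8.06 and 7.68 on negative control and 8.32, 7.97 and 8.05 on mimic arrays. It rose by 0.73 ± 0.16 in the mimic against mock (n = 3 per group, adjusted p = 0.0414). That call ended when any array other than mock 3 or negative control 2 was left out (highest adjusted p = 0.151). The mitochondrial chaperones HSPA9 and HSPD1 were at 0.17 and 0.32 in the same comparison, and HSPA9 at 0.04 without mock 2.

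In the ER the 25 other measured folding genes had a median of -0.04 with 10 above 0 in the mimic against the negative control (-0.12 with 7 above 0 when quantile-normalized again), where 0 rose and 1 fell. That was ERP44, which retains thiol-linked proteins in the early secretory pathway, at -0.77 ± 0.11 (n = 3 per group, adjusted p = 0.00752). It read 7.79, 7.58 and 7.61 on mimic, 8.28, 8.66 and 8.33 on negative control and 8.17, 8.07 and 8.14 on mock arrays, so that the mimic lay below both control groups, and the call held with each array left out. TMX3, a membrane-bound disulfide isomerase, fell in the mimic against mock, by -0.70 ± 0.12 (adjusted p = 0.0147), which did not pass without mimic 2 or mimic 3 (highest adjusted p = 0.059). It read 7.02, 7.04 and 7.40 on mock, 6.67, 6.87 and 6.78 on negative control and 6.59, 6.38 and 6.39 on mimic arrays, with the negative control between. Of 12 genes of ER-associated degradation 0 rose and 0 fell in limma in each comparison, with 4, 2 and 2 at an unadjusted p under 0.05 in the mimic against the negative control, the mimic against mock and the negative control against mock. The 9 prefoldin and chaperonin helper genes had 0 calls too, with 0, 2 and 1 at an unadjusted p under 0.05.

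Among 17 stress sensors and ATF4 targets, VLDLR, ASNS and DDIT3 fell in the negative control against mock, and VLDLR, ASNS and SESN2 rose in the mimic against the negative control. Of all genes 0.477% fell in the former comparison and 1.76% rose in the latter. The list did not move as a whole. In the former comparison 8 of the 17 were above 0 (median -0.05), and in the latter 9 were (median 0.07). ASNS, asparagine synthetase, read 7.03, 6.98 and 6.83 on mock, 5.71, 6.31 and 5.91 on negative control and 6.69, 6.67 and 6.66 on mimic arrays. The negative control lay lowest, by -0.97 ± 0.14 against mock (n = 3 per group, adjusted p = 0.0152), which did not pass without mock 1 or negative control 3 (highest adjusted p = 0.0926). ASNS rose by 0.70 ± 0.14 in the mimic against the negative control (adjusted p = 0.0271), which did not pass without negative control 1, negative control 3 or any mimic array (highest adjusted p = 0.0966). VLDLR, a lipoprotein receptor, and SESN2, a stress-induced regulator of growth signalling, showed the same order of negative control and mimic. VLDLR read 4.25, 4.41 and 4.33 on mock, 3.34, 3.42 and 3.48 on negative control and 4.50, 4.72 and 4.33 on mimic arrays. It fell by 0.92 from mock to negative control (adjusted p = 0.0071) and rose by 1.11 ± 0.11 in the mimic against the negative control (adjusted p = 0.00113). These calls held with each array left out. SESN2 read 5.27, 5.15 and 5.88 on mock, 4.26, 4.86 and 4.86 on negative control and 6.32, 5.84 and 5.89 on mimic arrays. It rose by 1.36 ± 0.23 in the mimic against the negative control (adjusted p = 0.0141, or 0.0597 without mimic 1), and the mimic and mock arrays overlapped. DDIT3, which encodes the stress factor CHOP, read 4.40, 4.11 and 4.59 on mock against 3.18 to 3.66 on the 6 arrays with a small RNA. It fell by 0.91 on the log2 scale in the negative control (adjusted p = 0.0482) and by 0.84 in the mimic (adjusted p = 0.0252). The first ended with the replicate block (adjusted p = 0.116) and when any array other than mock 2 was left out (highest adjusted p = 0.182). The second ended without mock 1, mock 3 or any mimic array (highest adjusted p = 0.0958). The list of heat shock factors was measured at HSF1, HSF4 and HSBP1, which binds the factors, and 0 of these 3 passed in any comparison (1, 1 and 0 at an unadjusted p under 0.05, HSF4 each time). The 3 are named after their values were seen. HSF4 was at -0.43 in the mimic against the negative control (adjusted p = 0.087) and -0.44 against mock (adjusted p = 0.0661). HSF1, the main activator of heat shock genes, gave 0.17 for the mimic against either control group and 0.01 for the negative control against mock (adjusted p at least 0.65). HSBP1 was at -0.01 in the mimic against the negative control, and at 0.33 and 0.34 in mimic and negative control against mock (adjusted p at least 0.358).

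**Figure D4:**
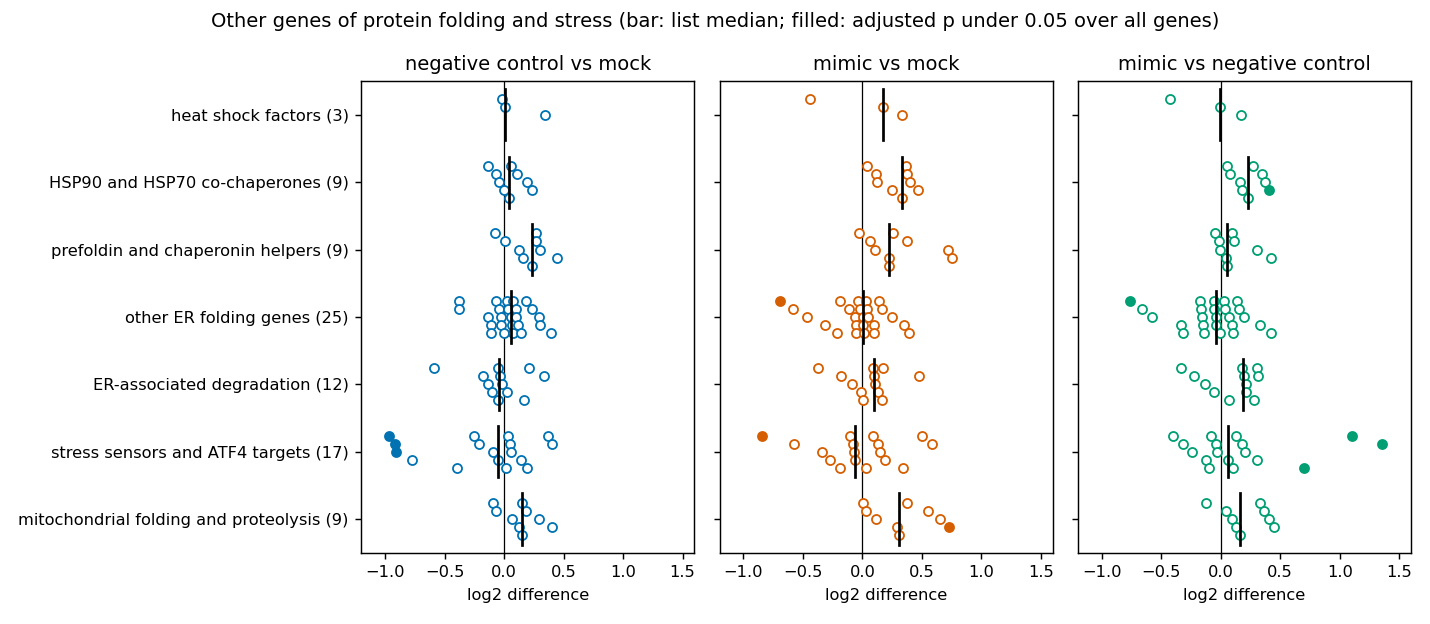
Log2 difference (horizontal axis) of the 84 other measured genes of protein folding and stress in 7 lists (rows, number of genes in brackets) for 3 comparisons of 3 arrays against 3; bars are list medians and filled points passed at an adjusted p under 0.05 over all genes. The 9 co-chaperones lie above 0 in both panels with the mimic (8 of 9 against mock when quantile-normalized again), and the filled points at the left of the panel of the negative control against mock are ASNS, VLDLR and DDIT3.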

How the data were processed

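The authors deposited log2 signals made with RMA, per the submitters' processing notes; no source used here gives its version or settings. RMA brings arrays to near-identical distributions, so the values are relative to each array. Of 53617 features, 16098 had exactly 1 symbol in the platform's annotation, and all 16098 matched a RefSeq gene. The brightest feature stood for each of the 779 genes with several, and no filter on signal was set. limma 3.58.1 in R 4.3.3 (lmFit, eBayes, 1 mean per group over 9 arrays, 9.60 total degrees of freedom) was tested on simulated data. The p-values are two-sided and adjusted by Benjamini and Hochberg. The number of arrays limits the precision.

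The members, lists and alternatives were chosen with earlier results of these data known. Members were named by rule (each one called, the brightest and the most different between mimic and negative control in each family, and a set of well-known chaperones); the remaining members were described after their values were seen. Planned protein motifs were not run. Same-numbered negative control and mock arrays deviated together weakly (r = 0.152, 0.225 and 0.147 across genes). The labels state no pairing, so whether these arrays were handled together is not known. Mimic arrays had r from -0.292 to -0.0544 with same-numbered arrays of the other groups. Alternatives were scaling, signal filters, feature means, variance model, arrays in the fit, the replicate block, the small nucleolar RNA mean as covariate, and each array left out. The fit on 6 arrays with the block was added after seeing the data.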

Additional observations from a re-analysis of the deposited data

How the results depend on the processing

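In the mimic against the negative control 1 of the 27 genes rose, XBP1, or 0 on 6 arrays with the replicate block (5 at an unadjusted p under 0.05 in limma; XBP1 adjusted p = 0.157), and 0 to 1 with each array left out. XBP1 was between 0.40 and 0.55 over 19 alternatives and passed in 15. It passed narrowly with the replicate block (adjusted p = 0.0499) and on 6 arrays without it (adjusted p = 0.0468). Leaving out a mock array, or averaging features, could not change its difference. In the mimic against mock 2 rose: 1 when quantile-normalized again, with trend and robust variance, or with the small nucleolar RNA covariate; 4 among the brighter genes (HSPA14 and HSPH1 added); and 0 on 6 arrays (6 unadjusted), with the replicate block (8 unadjusted) or with both (6 unadjusted). Leaving out each array gave 0 to 2. HSPA1A passed there in 12 of 19 alternatives and HSPA1B in 5. In the negative control against mock 2 rose: 1 with the replicate block, 0 on 6 arrays (3 unadjusted) or with both (4 unadjusted), and 0 to 2 with each array left out. HSPA1A (0.67 to 0.81) passed there in 14 of 19 and HSPA1B (0.58 to 0.71) in 10. The replicate block changed no other call of the 27. Of the other folding and stress genes it ended the call of TOMM70 in the mimic against the negative control (adjusted p = 0.0765). It also ended those of TRAP1 (0.0858) and DDIT3 (0.0605) in the mimic against mock, and of DDIT3 in the negative control against mock (0.116). Mimic arrays did not deviate together with same-numbered arrays of the other groups. None of the 27 genes fell under any alternative. Of 1512 values of single genes, 1414 kept their direction and side of the threshold, 39 lost and 4 gained the call, and 55 that were never called changed sign. The fits on fewer arrays have fewer degrees of freedom; the other causes were not tested. Signals under the array median limit HSPA6, HSPA7, HSPB3 and HSPB8.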
